A study of Arabidopsis thaliana with 60 samples.

Results

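Dexamethasone (DEX) was compared with its solvent DMSO after 2 h of auxin in roots of the Arabidopsis line pGATA23::shy2-2-GR, here called the shy2-2 line. The 6 libraries were chosen by their titles, 3 of the line under DEX and 3 under DMSO, out of 60 libraries in the series. The line carries a stabilised form of the repressor IAA3 (SHY2), joined to the hormone-binding part of the glucocorticoid receptor and driven by the GATA23 promoter, and is not the native shy2-2 mutant. In the DEX group, seedlings taken 4 d after germination spent 22 h on 10 µM of the transport inhibitor NPA and 2 h on NPA with 10 µM DEX, and then 2 h on 10 µM of the auxin IAA with DEX. The DMSO group passed through the same steps with DMSO in place of DEX, so NPA, IAA and the transgene were common to both groups. About 200 segments of the lower root were pooled per sample. No plants without a fusion gene received DEX, so an effect of DEX itself cannot be told apart from one of the fusion.

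Aux/IAA proteins hold auxin response factors (ARFs) inactive. Auxin normally leads to their destruction, and a stabilised form such as shy2-2 resists it and keeps repressing. The glucocorticoid receptor domain holds the fusion in the cytoplasm until DEX is given. GATA23 encodes a GATA factor of the pericycle cells that found lateral roots, and its promoter is known to be active there. ARF7 and ARF19 drive LBD16 and related LOB-domain genes in these cells, and the founder cells then divide to form a lateral root.

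The libraries held 31783665, 48048576 and 36689011 counts under DEX, and 28101468, 44604495 and 51308568 counts under DMSO. By the names of their sequencing runs, the DEX libraries of 0, 2, 4 and 6 h came from one run and the DMSO libraries of these times from another, so run and treatment cannot be told apart at 2 h. Both treatments of 1 h in this line were in one further run, together with slr-1 libraries. DMSO replicate 2 stood apart in photosynthesis and shoot genes, whose summed level was 4002 CPM (counts scaled to the same total in every library) there and 211 to 391 CPM in the other 5 libraries. The leaf polarity genes YAB3 and AFO reached 1.86 and 1.32 CPM in it and were at 0 in the 3 DEX libraries. None of the 17 genes of this marker list passed the test, although all had a log2 fold below 0 (median -2.20). Marker lists of the endodermis (403 to 529 CPM under DEX, 471 to 510 CPM under DMSO), xylem (177 to 238 and 174 to 219 CPM) and phloem (132 to 136 and 123 to 135 CPM) overlapped between the groups in their summed level. So did those of suberin (156 to 342 and 143 to 357 CPM), root hair (379 to 643 and 395 to 582 CPM), and columella and meristem (94.5 to 103 and 95.6 to 102 CPM). The root cap list (206 to 246 CPM under DEX, 255 to 279 CPM under DMSO) did not overlap, and 0 of its 6 genes passed. The joint list of pericycle and procambium overlapped at its edge (292 to 327 CPM under DEX, 326 to 337 CPM under DMSO), and 1 of its 9 genes passed, GATA23.

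Which genes differed between DEX and DMSO after 2 h of IAA? DEX was followed by lower levels of GATA23 and of 4 LOB-domain genes, and by higher levels of 4 genes of xylem loading. By edgeR's quasi-likelihood test with Benjamini-Hochberg adjustment, 58 genes were higher in DEX (0.265% of the 21902 tested) and 72 were lower (0.329%) at an adjusted p under 0.05, or 130 in all (0.594%). At an unadjusted p under 0.05 there were 1606 genes. Of the called genes, 26 higher (0.119%) and 16 lower ones (0.0731%) differed by a log2 fold of at least 1. The median log2 fold was 0.97 among the higher and -0.59 among the lower genes, against -0.0035 over all genes tested. Without any regard to the test, all 3 DEX libraries stood above all 3 DMSO libraries in 5.75% of genes and below them in 6.9%. RNA per cell and the number of cells of a type cannot be told apart in such pooled tissue.

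These counts depended on the spread taken from the other libraries of the line. Fitted on the 6 libraries alone the test called 13 genes higher and 8 lower. The higher genes numbered 34 without DMSO replicate 1 and 32 without DMSO replicate 3. The lower genes numbered 27, 37 and 27 without DEX replicate 1, 2 or 3, and 36 and 20 without DMSO replicate 1 or 3.

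**Figure D1:**
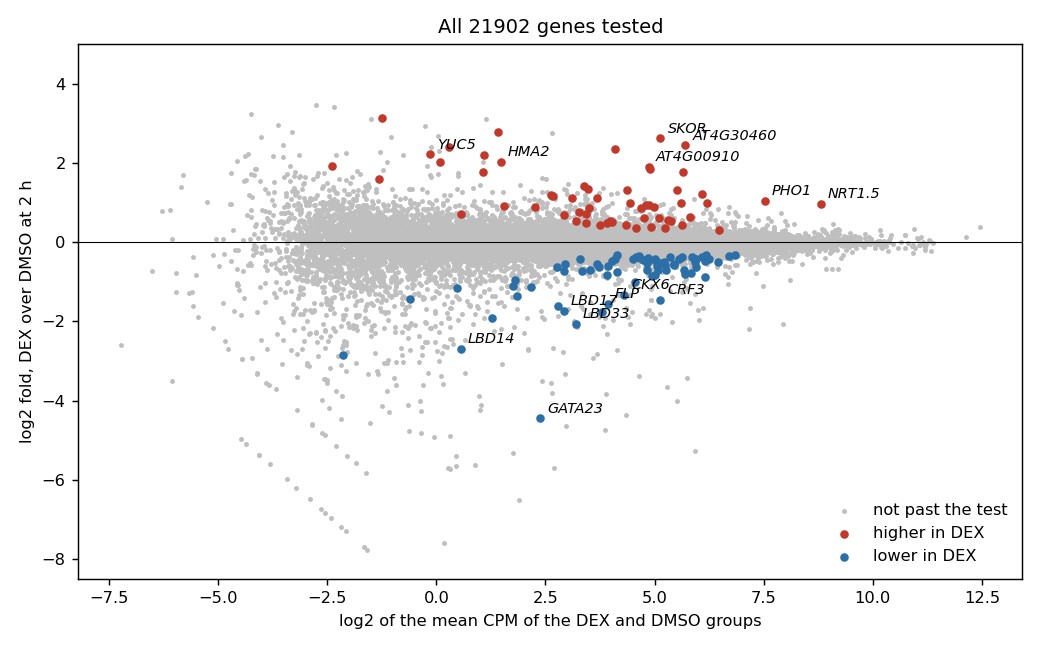
Each point is 1 of the 21902 genes tested, with the log2 of its mean CPM over the DEX and DMSO groups on the x axis and the log2 fold of DEX over DMSO at 2 h on the y axis. The 58 higher and 72 lower genes are coloured, with GATA23 lowest of them at -4.45, and the grey points far below zero include photosynthesis genes, down to -7.70.

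The transgene and its promoter's own gene were looked at first. IAA3 (AT1G04240), whose counts include reads of the fusion, had 50.2, 68.4 and 70.4 CPM in the DEX libraries, against 83.8, 76.6 and 97.2 CPM in the DMSO libraries. The DEX libraries all lay below the DMSO libraries, as in 6.9% of all genes tested. The log2 fold of -0.45 ± 0.25 (standard error, n = 3 libraries per group, as in all such values here) did not pass (adjusted p = 0.788). GATA23 (AT5G26930, chromosome 5, 9479424 to 9480200, plus strand, TAIR10.1) had 0.284, 0.360 and 0.709 CPM in the DEX libraries, from 9, 17 and 27 counts, against 10.4, 8.58 and 11 CPM in the DMSO libraries, from 297, 383 and 547 counts. All DEX libraries were far below all DMSO libraries, with a log2 fold of -4.45 ± 0.30 (adjusted p = 5.48e-09). This was the largest fall among the called genes. At 0 h, before IAA, the gene had 0.0486, 0 and 0.0431 CPM under DEX and 0.256, 0.445 and 0.416 CPM under DMSO, which did not pass at these low counts (adjusted p = 0.121).

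Sequences just upstream of 4 of the called genes are shown, GATA23, LBD33 and LBD16 among the lower and SKOR among the higher. Each line gives the 250 bases before the annotated start on the gene's own strand, from RefSeq's TAIR10.1 genome, at chr5:9479174-9479423 (plus strand), chr5:1831468-1831717 (minus), chr2:17663103-17663352 (plus) and chr3:623740-623989 (minus). Capitals mark TGTCTC or TGTCGG, 6-base elements that ARFs are known to bind, searched for on both strands. GATA23 held TGTCGG once, read on the opposite strand as CCGACA, 122 bases before the start, and LBD33 held TGTCTC once, 14 bases before the start. LBD16 and SKOR held neither in these windows. The same windows of LBD17, FLP, CRF3, AT4G30460, AT4G30450 and AT4G00910 were also searched and held neither. So 2 of the 10 windows looked at had a match, and both are among the 4 shown.
GATA23: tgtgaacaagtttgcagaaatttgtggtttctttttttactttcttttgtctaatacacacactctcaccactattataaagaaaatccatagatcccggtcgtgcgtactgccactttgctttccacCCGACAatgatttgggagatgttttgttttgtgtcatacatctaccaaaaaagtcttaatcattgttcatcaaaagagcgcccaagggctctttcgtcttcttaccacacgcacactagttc
LBD33: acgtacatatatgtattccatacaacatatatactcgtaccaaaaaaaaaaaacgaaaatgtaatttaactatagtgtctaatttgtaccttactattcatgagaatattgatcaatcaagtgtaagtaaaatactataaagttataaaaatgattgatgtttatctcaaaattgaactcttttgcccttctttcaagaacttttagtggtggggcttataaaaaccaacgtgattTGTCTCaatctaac
LBD16: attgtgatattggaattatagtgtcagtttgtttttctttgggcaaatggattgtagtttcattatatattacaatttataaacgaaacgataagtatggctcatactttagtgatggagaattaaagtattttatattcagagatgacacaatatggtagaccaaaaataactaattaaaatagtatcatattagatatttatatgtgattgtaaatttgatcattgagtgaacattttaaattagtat
SKOR: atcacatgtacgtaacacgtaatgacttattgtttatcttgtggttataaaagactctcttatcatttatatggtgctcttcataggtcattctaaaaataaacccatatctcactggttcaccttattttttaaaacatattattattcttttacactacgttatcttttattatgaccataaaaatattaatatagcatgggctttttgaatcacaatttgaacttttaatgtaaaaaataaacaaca

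Over all genes such matches were nearly as frequent. TGTCTC was present in 8 of the 72 windows of lower genes (11.1%), in 8 of the 58 of higher genes (13.8%) and in 10.8% of the 21804 windows of tested genes. TGTCGG was present in 6.94% of lower, 5.17% of higher and 4.56% of all windows. A match is a description of the letters and not a binding site.

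Among the genes of lateral root initiation, 7 of 28 were lower in DEX and 0 were higher. Over all genes tested 0.329% were lower and 0.265% higher. This list, like the others, was chosen with earlier results of these data known. The list's median log2 fold was -0.14, and its other members lay on both sides of zero. LBD33 (AT5G06080, chromosome 5, 1830671 to 1831467, minus strand), which encodes a partner of LBD18 in the activation of the cell cycle gene E2FA, had 2.78, 4.39 and 3.42 CPM in the DEX libraries and 13.1, 10.9 and 20.23 CPM in the DMSO libraries. The groups were far apart, with a log2 fold of -2.06 ± 0.37 (adjusted p = 0.00578). The call of LBD33 was lost without DEX replicate 1 or DMSO replicate 3. It was also lost under a replicate block, a term for each replicate number (adjusted p = 0.0779), and with only the 6 libraries fitted (adjusted p = 0.0758). LBD17 (AT2G42440, chromosome 2, 17668701 to 17669836, minus strand) had 3.16, 2.90 and 4.39 CPM under DEX and 13.6, 9.52 and 11.6 CPM under DMSO. Its log2 fold was -1.73 ± 0.22 (adjusted p = 8.58e-05). LBD16 (AT2G42430, chromosome 2, 17663353 to 17665337, plus strand), which acts in the asymmetric division of founder cells, had 16.2, 15.3 and 15.3 CPM under DEX, against 29.8, 30.4 and 33.0 CPM under DMSO. The replicates of LBD16 were tight in both groups (-0.9958 ± 0.13, adjusted p = 7.46e-05). LBD16 and LBD17 are neighbours on chromosome 2, on opposite strands with 3363 bases and no other gene between them.

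The remaining members of that list included 3 more genes past the test. LBD14 (AT2G31310) had 0.663, 0.276 and 0.263 CPM under DEX and 2.90, 3.49 and 1.21 CPM under DMSO, a log2 fold of -2.69 ± 0.42 (adjusted p = 0.000825). Its libraries were already apart at 0 h, with 0.729, 0.357 and 0.474 CPM under DEX and 2.03, 2.99 and 2.51 CPM under DMSO, although edgeR's test called no gene at 0 h (728 at an unadjusted p under 0.05, and 6 called by DESeq2). FLP (AT1G14350), a MYB factor gene known from stomatal divisions, had 7.23, 7.17 and 8.75 CPM under DEX, against 24.3, 20.7 and 23.2 CPM under DMSO. Its standard error was among the smallest of the large differences (-1.56 ± 0.12, adjusted p = 4.81e-08). WOX11 (AT3G03660), a homeobox gene of root founder cells, had 28.3, 27.9 and 31.4 CPM under DEX and 57.3, 39.8 and 46.5 CPM under DMSO. At -0.71 ± 0.16 it passed narrowly (adjusted p = 0.0366), and the call was lost without any one of DEX replicates 1, 2 and 3 or DMSO replicates 1 and 3. The call of WOX11 was also lost under a replicate block (adjusted p = 0.123) and with only the 6 libraries fitted (adjusted p = 0.193).

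Other LOB-domain genes and the primordium gene PUCHI did not pass. LBD29 (AT3G58190) had 71.3, 72.6 and 75.7 CPM under DEX and 95.0, 68.9 and 104 CPM under DMSO, and LBD18 (AT2G45420) had 23.95, 37.6 and 35.4 CPM under DEX and 24.8, 19.3 and 37.0 CPM under DMSO. Both sets of libraries overlapped, with log2 folds of -0.29 ± 0.27 and 0.25 ± 0.28. PUCHI (AT5G18560), an AP2-family gene that shapes the primordium, had 10.0, 11.5 and 11.4 CPM under DEX and 16.2, 10.9 and 21.4 CPM under DMSO (-0.56 ± 0.35, adjusted p = 0.895). Over the 23 LOB-domain genes tested, a group picked out by annotation after the values were seen, 4 were called lower and 0 higher. Their median log2 fold was 0.02, and 0.329% of all genes tested were called lower.

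**Figure D2:**
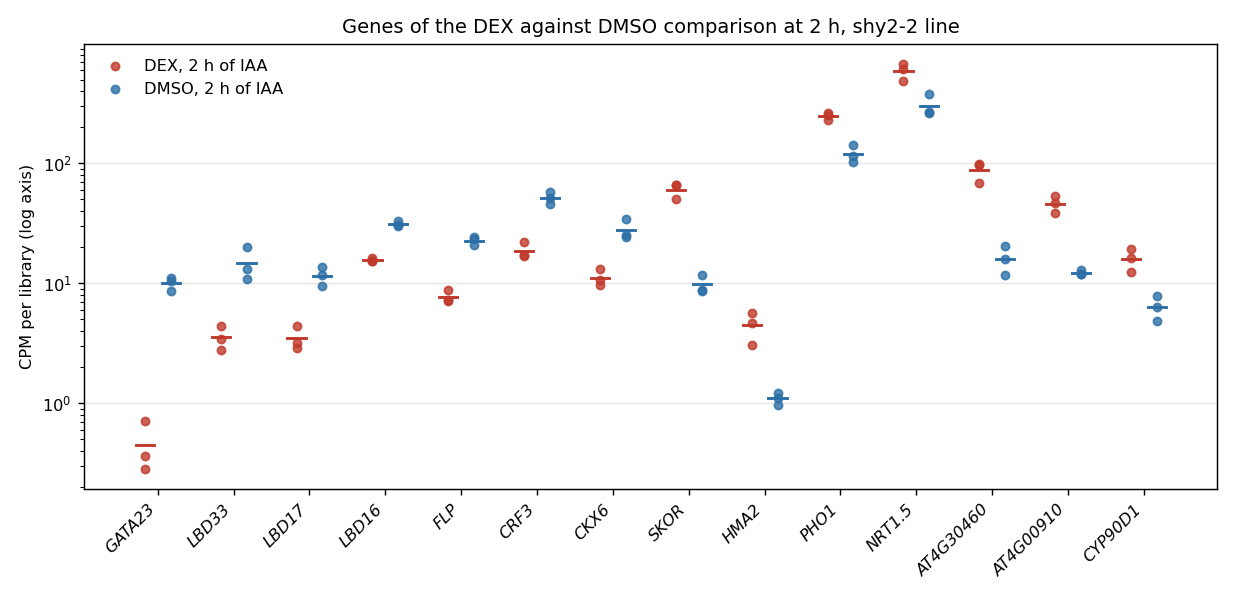
Points give the CPM of each library on a log axis for the named genes, DEX to the left of DMSO within each gene, and short bars give the group means. GATA23 shows the widest gap among the lower genes, at 0.284 to 0.709 CPM under DEX and 8.58 to 11 CPM under DMSO, and SKOR the widest among the higher genes of xylem loading.

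Of the genes of auxin signalling, few differed. All 28 tested Aux/IAA genes stayed short of the threshold, with log2 folds between -0.68 and 0.27 and a median of -0.04. IAA19 stood at -0.33 ± 0.33, IAA5 at -0.07 ± 0.36 and IAA14 at -0.02 ± 0.17. GH3.3, whose enzyme conjugates IAA to amino acids, stood at -0.20 ± 0.18. Of 21 genes of ARFs and auxin receptors 1 was lower and 0 were higher, against 0.329% and 0.265% of all genes tested. The lower one was ARF4 (AT5G60450), which encodes a repressing ARF, with 35.4, 38.4 and 39.3 CPM under DEX and 69.6, 56.2 and 72.0 CPM under DMSO. The groups of ARF4 did not overlap (-0.81 ± 0.12, adjusted p = 0.000546), and DEX lay below DMSO without overlap in 6.9% of all genes tested. ARF19 stood at -0.13 ± 0.08. Of 20 auxin transport genes none passed.

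Genes for auxin synthesis went the other way where they passed. Of 18 genes of auxin synthesis and inactivation 3 were higher in DEX and 0 lower, with a median of 0.08. The shares over all genes tested were 0.265% and 0.329%. All 3 higher genes of the list encode YUCCA flavin monooxygenases, which form IAA in the last step of its main pathway. YUC6 (AT5G25620) had 6.28, 9.96 and 10.0 CPM under DEX, against 3.99, 3.99 and 3.82 CPM under DMSO (1.16 ± 0.23, adjusted p = 0.0133). YUC5 (AT5G43890) had 1.07, 1.34 and 2.05 CPM under DEX and 0.245, 0.291 and 0.402 CPM under DMSO (2.21 ± 0.28, adjusted p = 7.46e-05). YUC2 (AT4G13260) stayed below 1 CPM in every library, with a log2 fold of 1.59 ± 0.36 (adjusted p = 0.0403). None of these 3 genes overlapped between the groups, and DEX stood above DMSO without overlap in 5.75% of all genes tested. In the list 1 gene was left without DEX replicate 2, DEX replicate 3, DMSO replicate 1, 2 or 3, and 0 were left when only the 6 libraries were fitted.

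Hormone genes outside the auxin lists gave single calls, where 0.594% of all genes tested were called in either direction. CKX6 (AT3G63440), which encodes a cytokinin oxidase that degrades cytokinin, had 9.72, 13.1 and 10.6 CPM under DEX and 25.2, 24.3 and 34.6 CPM under DMSO. It was the only gene past the test among 22 tested of the cytokinin list (-1.33 ± 0.24, adjusted p = 0.00431), and it did not pass when the counts of both strands were summed (adjusted p = 0.13). CRF3 (AT5G53290), a cytokinin response factor gene, had 16.9, 17.04 and 22.2 CPM under DEX, against 57.3, 45.5 and 51.3 CPM under DMSO (-1.45 ± 0.16, adjusted p = 6.44e-06). CYP735A1 (AT5G38450), whose enzyme hydroxylates cytokinins to the trans-zeatin type, was higher, with 3.63, 3.92 and 2.94 CPM under DEX and 0.525, 0.896 and 0.845 CPM under DMSO. Its log2 fold was 2.19 ± 0.30 (adjusted p = 0.000192), and it is named outside the naming rule, after its values were seen. CYP90D1 (AT3G13730), a cytochrome P450 gene of brassinosteroid synthesis, had 12.5, 19.2 and 16.2 CPM under DEX and 6.37, 4.86 and 7.80 CPM under DMSO (1.33 ± 0.20, adjusted p = 0.000587). It was the 1 gene called among 18 of brassinosteroid and gibberellin metabolism. Of the brassinosteroid receptor family, chosen after the values were seen, BRL1 was lower (-0.71 ± 0.14, adjusted p = 0.0119) and BRL2 higher (0.44 ± 0.09, adjusted p = 0.0128). The call of BRL1 was lost without DEX replicate 3 or DMSO replicate 3 and under a replicate block (adjusted p = 0.0658). That of BRL2 was lost without DEX replicate 1 or 2 or DMSO replicate 1 or 3, and with both lines fitted together.

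Of 11 genes of xylem loading and vascular transport, 4 were higher in DEX and 0 lower, with a median log2 fold of 0.67. Among all genes tested 0.265% were higher and 0.329% lower. SKOR (AT3G02850, chromosome 3, 619678 to 623739, minus strand), the outward potassium channel of the stele, had 65.6, 65.7 and 50.2 CPM in the DEX libraries, against 8.85, 11.8 and 8.65 CPM in the DMSO libraries. The lowest DEX library lay several times above the highest DMSO library (2.63 ± 0.20, adjusted p = 4.81e-08). At 0 h SKOR had 116, 131 and 125 CPM under DEX and 102, 100 and 125 CPM under DMSO. HMA2 (AT4G30110), a zinc exporter gene, had 3.06, 5.596 and 4.68 CPM under DEX and 1.22, 1.10 and 0.965 CPM under DMSO (2.03 ± 0.30, adjusted p = 0.000473). PHO1 (AT3G23430), which exports phosphate to the xylem, had 261, 252 and 229 CPM under DEX, against 102, 143 and 114 CPM under DMSO. No PHO1 library of one group reached the other (1.04 ± 0.16, adjusted p = 0.000825), and 5.75% of all genes tested had DEX above DMSO in this way. NRT1.5 (AT1G32450), the nitrate carrier of xylem loading, had 671, 616 and 489 CPM under DEX and 261, 382 and 268 CPM under DMSO (0.96 ± 0.18, adjusted p = 0.00694). The call of NRT1.5 was lost without DMSO replicate 1 or 3, and with only the 6 libraries fitted SKOR alone of the 4 passed. The zinc exporter gene HMA4, with 253, 250 and 218 CPM under DEX and 164, 173 and 160 CPM under DMSO, did not pass (0.53 ± 0.14, adjusted p = 0.104), nor did the sodium carrier gene HKT1 (1.75 ± 0.48, adjusted p = 0.126). The xylem marker list (VND7, cellulose synthases and others) had 0 of 11 genes past the test, with VND6 below 1 CPM in every library.

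Outside these lists, the higher genes with a log2 fold of at least 1, a mean of at least 5 CPM and no overlap carried varied annotations. Some called genes that did not meet this rule had larger log2 folds, such as AT3G08490 at 3.13 and AT3G29680 at 2.39. AT4G30460, annotated as a glycine-rich protein, had 69.1, 96.2 and 98.1 CPM under DEX, against 11.8, 20.3 and 16.1 CPM under DMSO (2.45 ± 0.26, adjusted p = 6.44e-06). Its neighbour AT4G30450, of the same annotation and strand and 2146 bases away, had 44.7, 41.5 and 54.1 CPM under DEX and 12.2, 14.7 and 12.4 CPM under DMSO (1.83 ± 0.22, adjusted p = 3.08e-05). Both were picked from the higher genes by a rule that asked for no overlap, so neither trait sets the pair apart. AT4G00910, of the aluminum-activated malate transporter family, had 38.3, 53.2 and 46.3 CPM under DEX and 11.9, 11.9 and 12.97 CPM under DMSO (1.90 ± 0.18, adjusted p = 1.34e-06). The peroxidase gene AT1G49570 had 27.2, 30.1 and 28.0 CPM under DEX and 8.15, 3.36 and 5.49 CPM under DMSO (2.34 ± 0.44, adjusted p = 0.00904), a call lost without DMSO replicate 2 or 3. SLAH3 (AT5G24030), an anion channel gene with a preference for nitrate, stood at 1.21 ± 0.17 and the subtilase gene ATSBT5.2 (AT1G20160) at 1.32 ± 0.13. IQD12 (AT5G03960), which encodes a calmodulin-binding IQ-domain protein, had 15.2, 14.2 and 15.8 CPM under DEX, against 6.30, 5.02 and 5.75 CPM under DMSO (1.41 ± 0.17, adjusted p = 3.08e-05). AT2G28780, annotated as a subunit of an efflux pump, had 65.5, 98.8 and 67.7 CPM under DEX and 18.3, 24.6 and 24.5 CPM under DMSO (1.78 ± 0.25, adjusted p = 0.000249). The lipid-transfer superfamily gene AT3G18280 stood at 1.32 ± 0.23, AT1G69080 of the adenine nucleotide alpha hydrolases at 1.19 ± 0.21, the pectin lyase-like gene AT3G61490 at 1.11 ± 0.16 and the nucleolar-like gene AT2G21560 at 1.10 ± 0.17. All 4 were without overlap between the groups, as the naming rule required, and the call of AT1G69080 was lost without DMSO replicate 3.

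Among the lower genes without a symbol, AT1G53163, annotated as a membrane-associated kinase regulator, had 6.60, 6.51 and 5.89 CPM under DEX and 18.2, 21.4 and 24.7 CPM under DMSO. AT3G11150, annotated as an oxygenase that uses 2-oxoglutarate and iron, had 3.41, 3.54 and 3.28 CPM under DEX and 10.2, 10.0 and 11.1 CPM under DMSO. Both had tight replicates and equal adjusted p values of 6.44e-06, at log2 folds of -1.76 ± 0.19 and -1.61 ± 0.17. Many lower genes differed by little, since 34 of the 72 lay under 1.5-fold, against 14 of the 58 higher ones. A word search of the annotations, with words chosen after the values were seen, matched 6 of the 72 (8.33%). It matched 2 of the 58 higher genes and 1.08% of all genes tested. The words were of ribosomes, the nucleolus and RNA helicases, with some taken from names of single genes such as PETER PAN (PPAN). The search told capitals from small letters and so passed over annotations that begin with Ribosomal. These shares therefore describe the words and do not count genes of ribosome formation. Among the 6 lower genes PPAN stood at -0.53 ± 0.09 (adjusted p = 0.00249) and the helicase gene RH36 at -0.48 ± 0.10 (adjusted p = 0.0239). The call of RH36 was lost without DEX replicate 1 or 3 or DMSO replicate 1 or 3, and under a replicate block (adjusted p = 0.184). Also lower were 3 genes of purine synthesis, ASE2 at -0.52 ± 0.12, PUR7 at -0.40 ± 0.09 and AT2G35040 at -0.39 ± 0.09. They were picked out by words of their own annotations after the values were seen, and the pathway was not examined as a set. All 3 of these calls were lost without any one of the 3 DEX libraries, and without DMSO replicate 2 or 3. Those of PUR7 and AT2G35040 were also lost without DMSO replicate 1.

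The lists of ethylene synthesis (12 genes tested), wall loosening (10), peptides and receptors (13), class II HD-ZIP and SHI-related factors (10), DNA replication (17), mitosis (17), touch and wounding (12) and detoxification (10) had no gene past the test. In the ethylene list the symbol ACO3 was matched to AT2G05710, an aconitase gene and not one of ethylene synthesis. The median log2 fold was -0.23 for DNA replication and -0.16 for mitosis. Of the 17 genes in each, 15 of replication and 14 of mitosis had a log2 fold below 0. Other lists without a call were as one-sided, with 9 of 10 detoxification genes below 0 and 10 of 11 xylem markers above 0. The medians of replication and mitosis were -0.09 and -0.02 at 1 h. In the slr-1 line at 2 h they were -0.07 and 0.008.

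How did these genes behave over the 2 h on auxin within each treatment? In DMSO, 2 h against 0 h of IAA had 15.8% of tested genes higher and 11.6% lower, and in DEX 12.9% higher and 8.46% lower. These comparisons share libraries with the DEX against DMSO comparison, so the values below only stand side by side. GATA23 had a log2 fold over these 2 h of 4.01 ± 0.63 in DEX and 4.73 ± 0.30 in DMSO. LBD33 stood at 3.1698 ± 0.48 in DEX and 5.56 ± 0.46 in DMSO, and LBD16 at 2.14 ± 0.14 in DEX and 2.73 ± 0.14 in DMSO. FLP was nearly flat in DEX, with 0.14 ± 0.13, against 1.66 ± 0.12 in DMSO. CRF3 stood at 0.95 ± 0.16 in DEX and 2.49 ± 0.16 in DMSO. SKOR stood at -1.04 ± 0.19 in DEX and -3.48 ± 0.21 in DMSO, and NRT1.5 at -0.64 ± 0.18 in DEX and -1.62 ± 0.18 in DMSO. LBD29, which did not pass between the treatments at 2 h, had 6.37 ± 0.37 in DEX and 6.65 ± 0.36 in DMSO. Time itself cannot be told apart from auxin here, since no course without IAA was run.

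The 4 h and 0 h DMSO libraries do not enter the 2 h fold itself, though they share in the estimate of the spread behind its test, and they came from the same run as each other. From 0 to 4 h in DMSO, 69 of the 72 genes lower in DEX at 2 h were called higher, against 24.5% of all genes tested. Of the 58 genes higher in DEX at 2 h, 51 were called lower over that time, against 17.4% of all genes. The medians were 1.18 and -1.15 on the log2 scale. LBD33 stood at 5.52, FLP at 3.44 and CRF3 at 2.91, whereas SKOR stood at -4.15 and NRT1.5 at -2.66. Of the other 7 higher genes 1 was called higher over that time, AT1G52140, higher both in DEX at 2 h (0.43) and from 0 to 4 h in DMSO (0.27), and named after its values were seen.

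**Figure D3:**
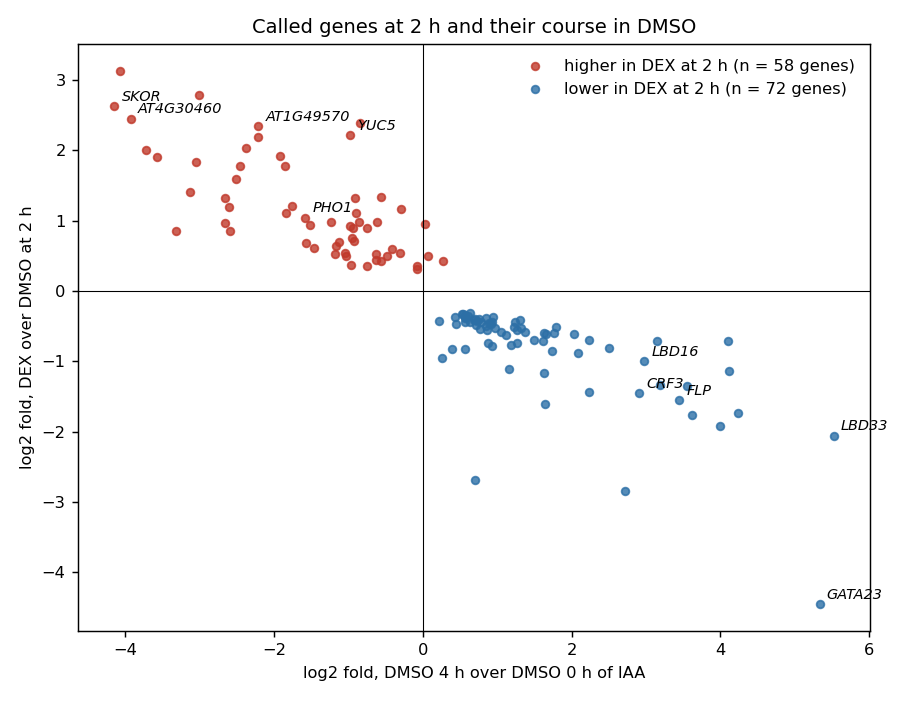
Each point is 1 of the 130 called genes, with the log2 fold of DMSO 4 h over DMSO 0 h of IAA on the x axis and the log2 fold of DEX over DMSO at 2 h on the y axis. The 72 lower genes all lie to the right of zero and 55 of the 58 higher genes to the left.

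To set the run aside, the 2 h difference was taken less the same difference at 0 h, within each run. A run difference of equal log2 size at both times cancels in this value. In edgeR's quasi-likelihood test 14 genes were more positive (0.0639%) and 8 more negative (0.0365%), with 1460 genes at an unadjusted p under 0.05. Of the lateral root initiation list 1 gene was called in this test, FLP, and of the xylem loading list 1, SKOR. GATA23, LBD14, LBD16, LBD17, LBD33, HMA2, PHO1 and NRT1.5 were not called in it. SKOR stood at 2.45, AT4G30460 at 2.17 and ATSBT5.2 at 1.53 among the positive ones, and CRF3 at -1.54 and FLP at -1.52 among the negative ones. These 5 calls held when any 1 of the 12 libraries was left out, but those of CRF3 and AT4G30460 were lost with only the compared groups fitted, and that of AT4G30460 also under a replicate block (adjusted p = 0.062). The counts were 6 and 1 with only the compared groups fitted. The positive count fell to 8 when DEX 0 h replicate 2 was left out, and likewise for its DMSO counterpart. It was 9 when DMSO lost replicate 3 at either time or replicate 1 at 2 h. The negative count was 16 without DEX 0 h replicate 3, 7 without DMSO 2 h replicate 2 or DEX 0 h replicate 1, and 3 or 4 without any one of the other 9 libraries. At 0 h itself DEX against DMSO had 0 calls in edgeR's test, with 728 genes at an unadjusted p under 0.05, and DESeq2 called 6. The 130 genes had median log2 folds there of 0.06 (higher at 2 h) and -0.03 (lower at 2 h).

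At 1 h of IAA, where both treatments shared a run, 22 genes were higher in DEX (0.1%) and 26 lower (0.119%). Of the 130 genes called at 2 h, all had the same sign at 1 h, against 61.0% of all genes tested. The genes called the same way at both times numbered 35, which is 26.9% of the calls at 2 h and 72.9% of those at 1 h. GATA23 had 0.817, 0.600 and 0.903 CPM under DEX at 1 h, against 19.96, 21.2 and 19.7 CPM under DMSO, a log2 fold of -4.69 ± 0.29. SKOR stood at 1.81 ± 0.20, LBD16 at -0.96 ± 0.13, LBD17 at -1.95 ± 0.22 and CRF3 at -1.55 ± 0.15. Among genes not called at 1 h, SLAH3 stood at 0.10 ± 0.16, AT4G30460 at 0.51 ± 0.25 and NRT1.5 at 0.43 ± 0.18. CYP90D1 stood at 2.33 ± 0.21 at 1 h and PUCHI at -2.18 ± 0.38, both further from zero than at 2 h. The difference between the 2 h and the 1 h effect was called for 0 genes in edgeR's test (301 genes at an unadjusted p under 0.05) and for 8 in DESeq2 (323 at an unadjusted p under 0.05).

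**Figure D4:**
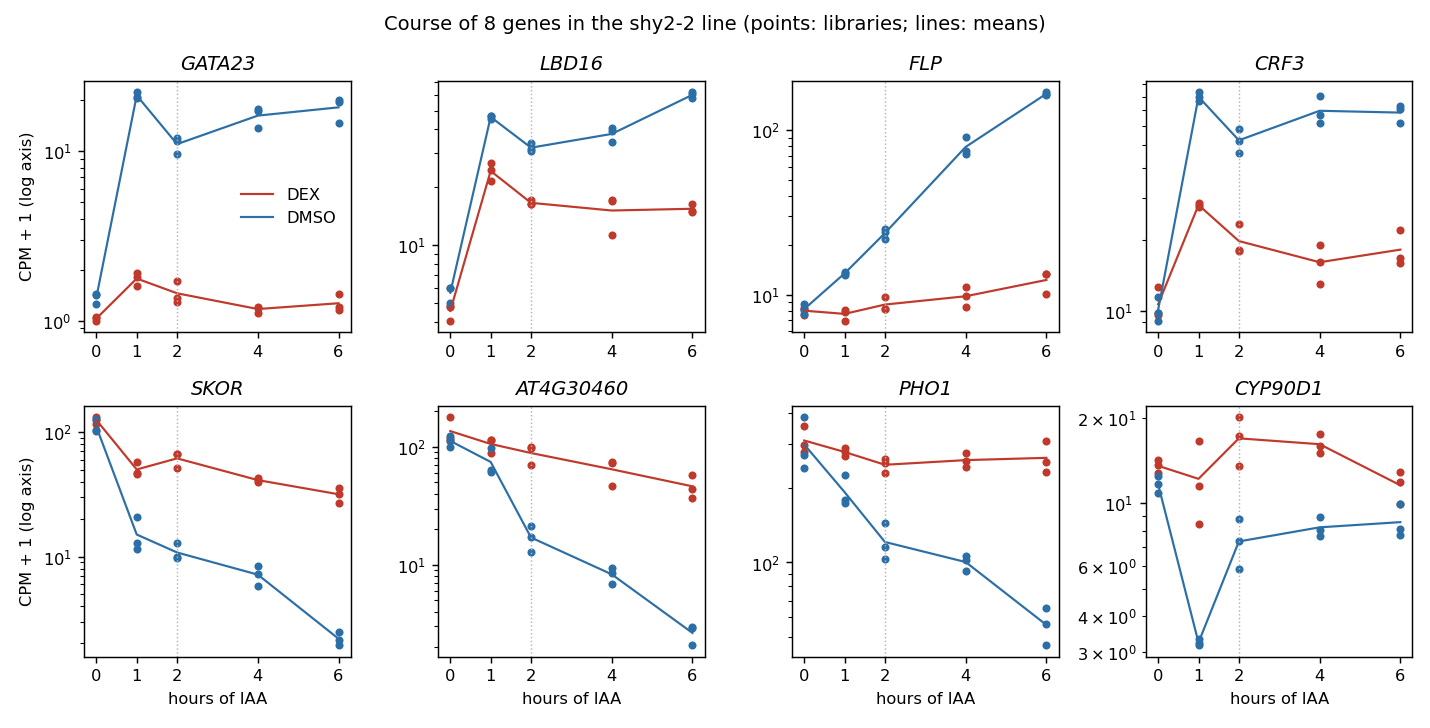
CPM + 1 on a log axis is plotted against hours of IAA for 8 genes, with a point for each library and lines through the means, DEX and DMSO in separate colours and a dotted line at 2 h. GATA23 stays near the bottom of its panel under DEX at every time, while SKOR under DMSO has fallen to 8.65 to 11.8 CPM at 2 h.

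Later in the course most of the 2 h genes remained called. At 4 h, when 540 genes were higher (2.47%) and 1835 lower (8.38%), 120 of the 130 were called the same way, which is 92.3% of the 2 h calls and 5.05% of the 4 h calls. At 6 h, with 1868 higher (8.53%) and 3051 lower (13.9%), 115 were, or 88.5% of them and 2.34% of the 6 h calls. FLP stood at -3.16 ± 0.13 at 4 h and -3.87 ± 0.13 at 6 h, LBD16 at -1.38 ± 0.13 and -2.04 ± 0.13, and LBD33 at -3.00 ± 0.39 and -3.37 ± 0.40. NRT1.5 stood at 1.96 ± 0.18 and 4.13 ± 0.20, and SKOR at 2.71 ± 0.21 and 4.67 ± 0.24. ARF4 kept nearly the same value at 4 h and 6 h (-0.85 ± 0.12 and -0.87 ± 0.12). YUC5 was at 1.10 ± 0.26 and 0.52 ± 0.26, no longer past the test at 6 h (adjusted p = 0.171). The leucine-rich repeat gene AT1G13910, at -0.59 ± 0.13 at 2 h, was called higher in DEX at 6 h, the only one of the 130 called in the opposite direction there. At 6 h 127 of the 130 kept their sign.

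The line pGATA23::slr-1-GR, which carries stabilised IAA14 in place of IAA3, was treated in the same way. In this slr-1 line at 2 h DEX had 92 genes higher (0.421% of 21864 tested) and 251 lower (1.15%), again with the treatments in separate runs. Of the 130 genes, 128 had the same sign there, against 69.9% of all genes tested in both lines, and 89 were called the same way, or 68.5% of the 130 and 25.9% of the slr-1 calls. GATA23 stood at -4.84 ± 0.23, LBD17 at -2.46 ± 0.17, FLP at -1.95 ± 0.16, SKOR at 3.87 ± 0.22 and PHO1 at 1.28 ± 0.14 in slr-1. The test of the difference between the lines called 1 gene (0.00449% of 22268), AT2G42150, annotated as a DNA-binding bromodomain protein, and had 284 genes at an unadjusted p under 0.05. AT2G42150 averaged 0.748 ± 0.27 CPM under DEX and 0.879 ± 0.14 CPM under DMSO in the shy2-2 line (SD, n = 3 libraries per group). In the slr-1 line it averaged 3.41 ± 0.53 CPM under DEX and 27.5 ± 4.5 CPM under DMSO, a difference between the lines of 2.79 ± 0.43 (adjusted p = 0.00115). This call was lost without shy2-2 DEX replicate 2 (adjusted p = 0.108), and with the counts of both strands summed (adjusted p = 0.289). Without shy2-2 DEX replicate 1 or slr-1 DMSO replicate 1 the test called 2 genes. IQD12 stood at 1.41 ± 0.17 in the shy2-2 line and 0.20 ± 0.18 in slr-1, and YUC5 at 2.21 ± 0.28 and 0.15 ± 0.31, but for neither did the difference between the lines pass (adjusted p = 0.075 for both).

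**Figure D5:**
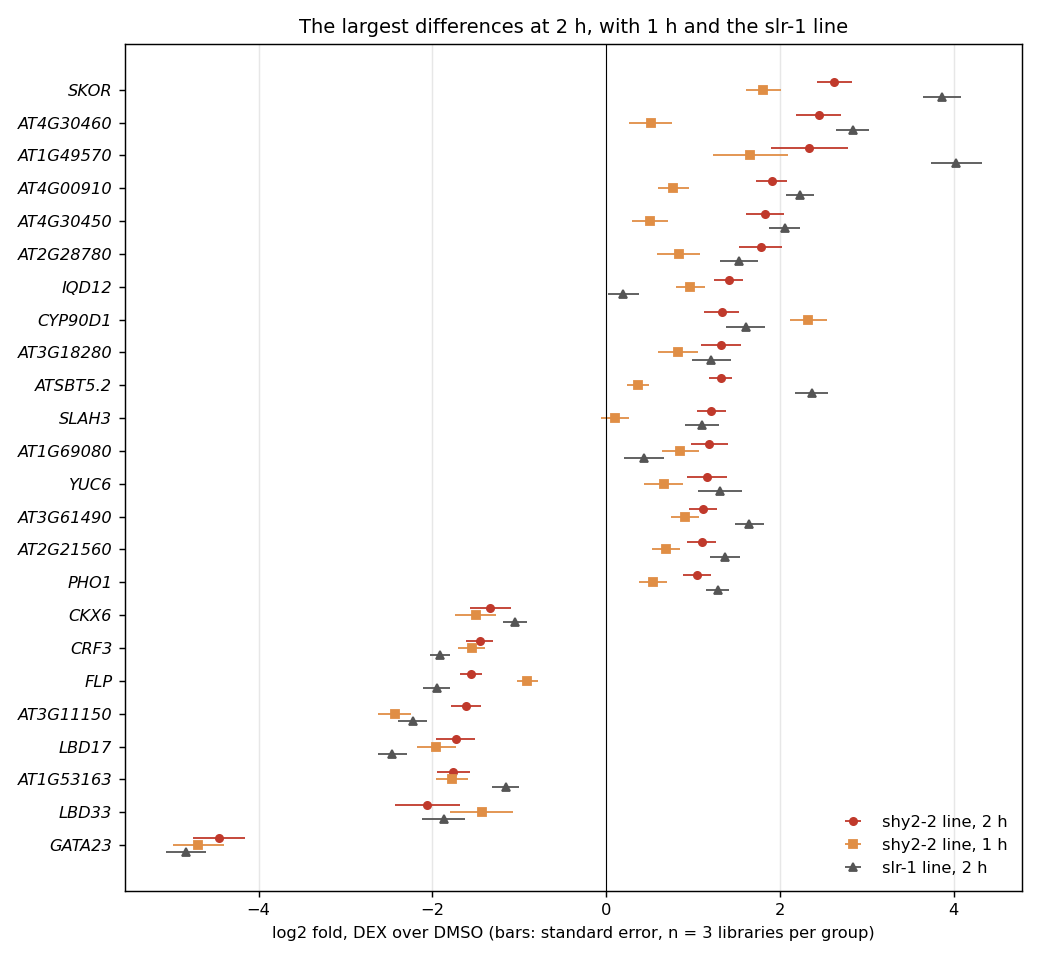
Log2 folds of DEX over DMSO with their standard errors (n = 3 libraries per group) are drawn for genes called at 2 h. Those drawn had a log2 fold of at least 1 in size, a mean of at least 5 CPM and no overlap between the groups. Beside them are the same genes at 1 h in the shy2-2 line and at 2 h in the slr-1 line. The values of a gene lie on the same side of zero, with SLAH3 at 1 h (0.10 ± 0.16) and IQD12 in the slr-1 line (0.20 ± 0.18) close to it.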

How the data were processed

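RNA was sequenced from pooled lower root segments. The authors aligned reads with STAR 2.5.2b to TAIR10, per the submitters' processing notes, which also name DESeq2. They deposited gene counts per library, not normalized. The fourth column of each file was used, since it held 93.6 to 96.4% of the counts on either strand in the series. Rows naming no gene held 7.11 to 9.79% of all counts in the 6 libraries and were left out. Of 32833 genes, 32548 matched RefSeq's TAIR10.1 gene table, and 10804 had a symbol there. Products, coordinates and upstream sequences are RefSeq's, on TAIR10.1.

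The 30 libraries of the line (10 groups) were fitted in edgeR 4.0.16 (R 4.3.3) with TMM factors, filterByExpr on the group and robust quasi-likelihood dispersions. This left 21902 genes with 20 residual degrees of freedom, a biological coefficient of variation of 0.201 and TMM factors of 0.969 to 1.04 in the 6 libraries. A gene was called at a Benjamini-Hochberg adjusted p under 0.05, and CPM are counts scaled to the same total in every library with these factors. Standard errors were obtained by dividing the size of the log2 fold by the root of its F value. The slr-1 line was fitted alone for its own values and with the shy2-2 line (40 residual degrees of freedom) for the difference between the lines. The steps were tested on simulated data. Alternatives were other factors, filters, groups, strands, a replicate block, single libraries left out, limma-voom (limma 3.58.1) and DESeq2 1.42.0. The labels do not state that replicates were separate cultures, so the p-values reflect only how far these samples differ, which may be technical variation. No 2 replicates differed by as little as counting error: the chi-square of a replicate pair, per degree of freedom, ran from 26.9 to 93.3.

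Genes were named if called with a log2 fold of at least 1 in size, a mean of at least 5 CPM and no overlap between the groups (up to 15 in each direction), or from gene lists by adjusted p, or as said beside them. The members, lists and tests were chosen with earlier results of these data known. The harvest text of the labels names 0, 2, 4 and 6 h but not 1 h.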

Additional observations from a re-analysis of the deposited data

Results flagged for a closer look

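The values here are log2 differences that passed edgeR's quasi-likelihood test of the difference itself (adjusted p under 0.05). For 22 genes the DEX against DMSO difference at 2 h differed from that at 0 h in the shy2-2 line, and 21 of them were also called at 2 h alone. More positive at 2 h were AT5G03995 (2.68), SKOR (2.45), AT4G30460 (2.17), YUC5 (2.02), the trehalose phosphatase gene TPPE (2.02), AT2G28780 (1.89), AT4G00910 (1.81), AT4G30450 (1.69), ATSBT5.2 (1.53), the wall enzyme gene XTH15 (1.26), IQD12 (1.26), AT5G57770 (0.84), AT5G05790 (0.66) and the bHLH factor gene UNE12 (0.55). More negative were EMB1290 (-5.31), CRF3 (-1.54), FLP (-1.52), the plasmodesmata gene PDLP8 (-1.38), ARF4 (-0.92), AT4G12840 (-0.92), AT5G04980 (-0.74) and AT2G37362 (-0.71). Over the 24 alternatives of this test, 4 of the 22 (SKOR, ATSBT5.2, AT4G00910 and FLP) kept their call in each and 18 lost it in at least 1.

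EMB1290, annotated as a cysteine-rich receptor-like kinase, was not called at 2 h alone. It had 0.600, 0.657 and 0.499 CPM under DEX and 2.27, 1.97 and 1.39 CPM under DMSO at 2 h, and 0.0971, 1.24 and 0.0861 CPM under DEX and 0.0788, 0 and 0.0396 CPM under DMSO at 0 h. Without DEX 0 h replicate 2, a library high in photosynthesis genes, its difference was -2.86 (adjusted p = 1.00).

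The difference between the shy2-2 and slr-1 lines at 2 h passed for AT2G42150 (2.79), whose levels and lost calls are given above.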

How the results depend on the processing

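Direction did not reverse for any of the 130 genes in 18 alternatives, and 21 were called in each, 13 higher and 8 lower. Among these were SKOR, AT4G30460, SLAH3, IQD12 and CYP735A1 (higher) and GATA23, FLP, CRF3 and LBD16 (lower). The number of higher genes was 13 with only the compared groups in the fit and 112 in DESeq2, and 32 to 49 with 1 of the 6 libraries left out. The number of lower genes was 8, 148 and 20 to 56 in these fits, and 112 with both lines fitted together. For 2 h less 0 h, the positive genes numbered 6 with only the compared groups or without libraries high in photosynthesis genes, 35 in DESeq2 and 8 to 20 with 1 library left out. The negative genes numbered 1, 4, 48 and 3 to 16 in these fits, 21 with both lines and 4 without the 1 h libraries. For 2 h less 1 h, 1 gene was called with both lines and 8 in DESeq2. For the difference between the lines 0 genes were called with only the compared groups or with both strands summed, 5 in DESeq2 and 0 to 2 with 1 library left out. The cause of these shifts was not tested; DESeq2 gave 852 genes no adjusted p. Same-numbered DEX and DMSO libraries had correlations of their deviations from the group mean of 0.050, -0.634 and -0.099. Differently numbered ones ran from -0.701 to 0.792. With 3 libraries per group, whose deviations depend on each other, these values cannot show whether the libraries were paired. A replicate block gave 46 higher and 43 lower genes at 2 h, and 5 negative genes for 2 h less 0 h. With only the compared groups, called genes fell to 3 in lateral root initiation, 1 in xylem loading and 0 in auxin synthesis.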

Other observations

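Among called genes outside the naming rule, chosen after their values were seen, TPPE and TPPB of the trehalose-6-phosphate phosphatases were higher in DEX. This gene family was not examined as a set. TPPE (AT2G22190) had 3.95, 2.61 and 3.23 CPM under DEX and 1.08, 1.14 and 0.643 CPM under DMSO. TPPB (AT1G78090) had 52.0, 36.5 and 28.1 CPM under DEX and 15.6, 23.02 and 21.8 CPM under DMSO. Neither gene's groups overlapped, and DEX stood above DMSO without overlap in 5.75% of all genes tested. The log2 folds of TPPE and TPPB were 1.77 ± 0.23 (adjusted p = 9.74e-05) and 0.95 ± 0.19 (adjusted p = 0.015) by the quasi-likelihood test of edgeR. The call of TPPB was lost without DEX replicate 1, DMSO replicate 1 or DMSO replicate 3, with only the compared groups fitted and under a replicate block (adjusted p = 0.144).

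HK1 (AT2G17820), a histidine kinase gene known from osmotic sensing, had 41.5, 37.9 and 30.7 CPM under DEX, against 17.99, 22.2 and 17.4 CPM under DMSO (0.93 ± 0.15, adjusted p = 0.000951). PDLP8 (AT3G60720), of the plasmodesmata-located proteins, had 2.34, 2.16 and 1.92 CPM under DEX and 4.69, 4.12 and 5.11 CPM under DMSO (-1.12 ± 0.14, adjusted p = 7.46e-05).

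IQD12 and AT5G03995, both higher in DEX, lie on the same strand of chromosome 5, with 7318 bases and 2 other genes between them. AT5G03995 had 5.52, 4.32 and 4.10 CPM under DEX and 0.385, 0.896 and 0.684 CPM under DMSO (2.79 ± 0.33, adjusted p = 3.08e-05). In the slr-1 line at 2 h AT5G03995 stood at 2.84 and IQD12 at 0.20.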
